A study of Homo sapiens with 6 samples.

Results

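Solute carriers are membrane proteins that move amino acids, sugars, lactate, metals, phosphate, ions, vitamins and nucleotide sugars across the cell surface and organelle membranes. The genes described here are the 69 protein-coding genes, of 5681 genes in the deposited table, whose symbols follow the SLC or SLCO naming scheme. Symbols starting SLC25A, the carriers of the mitochondrial inner membrane, and SLC37A4, the glucose-6-phosphate carrier of the endoplasmic reticulum, were left out, which took the name matches from 82 to 69. GENCODE version 29 holds 335 genes under the same rule. SLC2A4RG matched by name but encodes a transcription factor that acts on a glucose carrier gene, not a carrier. SLC8B1 was kept by the name rule although it encodes the sodium-calcium exchanger of mitochondria.

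HT-29, a human colorectal cancer cell line, was profiled by RNA-seq to ask which transcripts change when OGT is depleted. OGT is the enzyme that attaches the sugar N-acetylglucosamine to serines and threonines of intracellular proteins. The control libraries (Scramble, n = 3, genotype WT in the labels) came from cells infected with a non-targeting hairpin, and the shOGT libraries (n = 3, genotype OGT knock down) from cells infected with a hairpin against OGT. No other treatment separates the groups, and time after infection is not given in the labels. The study lists 2 hairpins against OGT and does not name the one used for sequencing, so an effect of 1 hairpin cannot be told apart from OGT depletion. The labels do not say that the libraries of a group came from separate cultures, so p-values measure the spread between these libraries, which may be technical.

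Carriers of the SLC1, SLC3, SLC6, SLC7, SLC38 and SLC43 families bring amino acids into cells, and those of SLC2, SLC5 and SLC16 move glucose, related polyols, and lactate and other monocarboxylates. Facilitators let a substrate run down its gradient, exchangers swap one substrate for another, and sodium-coupled carriers use the sodium gradient to concentrate theirs. Some carriers work only with a partner protein, such as the chaperone basigin for lactate carriers, and the intestinal epithelium uses many of them to absorb nutrients.

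Values are normalized counts, which are reads per gene divided by 1 size factor per library, and they are not divided by gene length. As a check of the labels, OGT itself stood at 9628, 11638 and 11619.5 in the Scramble libraries and at 484, 621 and 537 in the shOGT libraries, which left 4.99% of the Scramble level. Per library, reads on the listed genes ranged from 4145921 to 4504303 (Scramble) and from 3302558 to 3471647 (shOGT), which is not the whole depth. Only genes that had already passed 2-fold and an adjusted p of 0.05 in the study's own test are listed, so carriers outside those limits were not analysed here. Of 18 colon epithelial markers, 8 were in the table, 5 higher in shOGT (KRT20, 807, 935 and 889 against 5623, 5533 and 5767) and 3 lower (LGALS4, 2383, 2164 and 2055 against 549, 539 and 595). EPCAM, CDH1 and the other 8 of the 18 are not listed. Of 12 markers of fibroblasts, leukocytes, endothelium and liver, PECAM1 and PDGFRB were in the table and both were higher. Their summed level was 42.3 to 51.4 in Scramble and 142 to 211 in shOGT, with PDGFRB at 0 in 2 Scramble libraries, and its part in the results was not tested. In bulk RNA, more cells of a type and more RNA per cell cannot be told apart.

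The 69 solute carrier genes moved in both directions, with 10 of 14 amino acid carriers lower and 7 of 8 SLC16 genes higher in shOGT. Each of 3 phosphate importers was also higher, within a class of 6 that had 4 higher and 2 lower genes. A gene was called where limma's trend method on log2(normalized count + 1) gave a log2 fold change beyond 1 in size and a Benjamini-Hochberg adjusted p under 0.05 over the 5671 genes tested, and log2 fold changes are given ± standard error (SE). All 69 were called, against 99.4% of all genes tested, and this total follows from how the table was restricted. In shOGT, 38 of the 69 (55.1%) were higher and 31 (44.9%) lower. Over all genes tested, 52.2% were higher and 47.2% lower. Among protein-coding genes alone, to which the name rule was limited, the shares were 42.3% higher and 57.1% lower. The carriers thus split near all genes tested and leaned the other way from protein-coding genes, a difference that was not tested. The median log2 fold change was 1.12 over the carriers, 1.05 over all genes tested and −1.11 over protein-coding genes. The values of the groups did not overlap for any of the 69, as for 99.5% of all genes tested.

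The scaling of the libraries changed the number of lower calls. The 6 libraries were rescaled so that the median ratio was equal over the listed genes with a read in every library. This shifted the median of all log2 fold changes upward by 0.71, from 1.05 to 1.76, so it did not centre the genes tested as a whole. After it, 38 carriers were called higher and 16 lower, against 52.5% and 19.2% of all genes tested, and no carrier changed sign. Because the shift was upward, it put lower calls alone at risk and is no check of the higher calls. Every listed gene had passed 2-fold in the study's own test, so the rescaling had no unchanged genes to rest on. The 15 genes that came under 2-fold were SLC1A4, SLC7A2 and SLC43A2 among amino acid carriers, and SLC8B1, SLC9A8, SLC11A2, SLC23A1, SLC33A1, SLC35E2B, SLC35G1, SLC37A2, SLC39A7, SLC44A2, SLC44A5 and SLC45A3 among the others. Replicates were close where counts were high. For the 40 carriers with a mean of at least 100, the median coefficient of variation was 7.36% in Scramble and 9.44% in shOGT, and 13 carriers had a mean under 20.

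**Figure D1:**
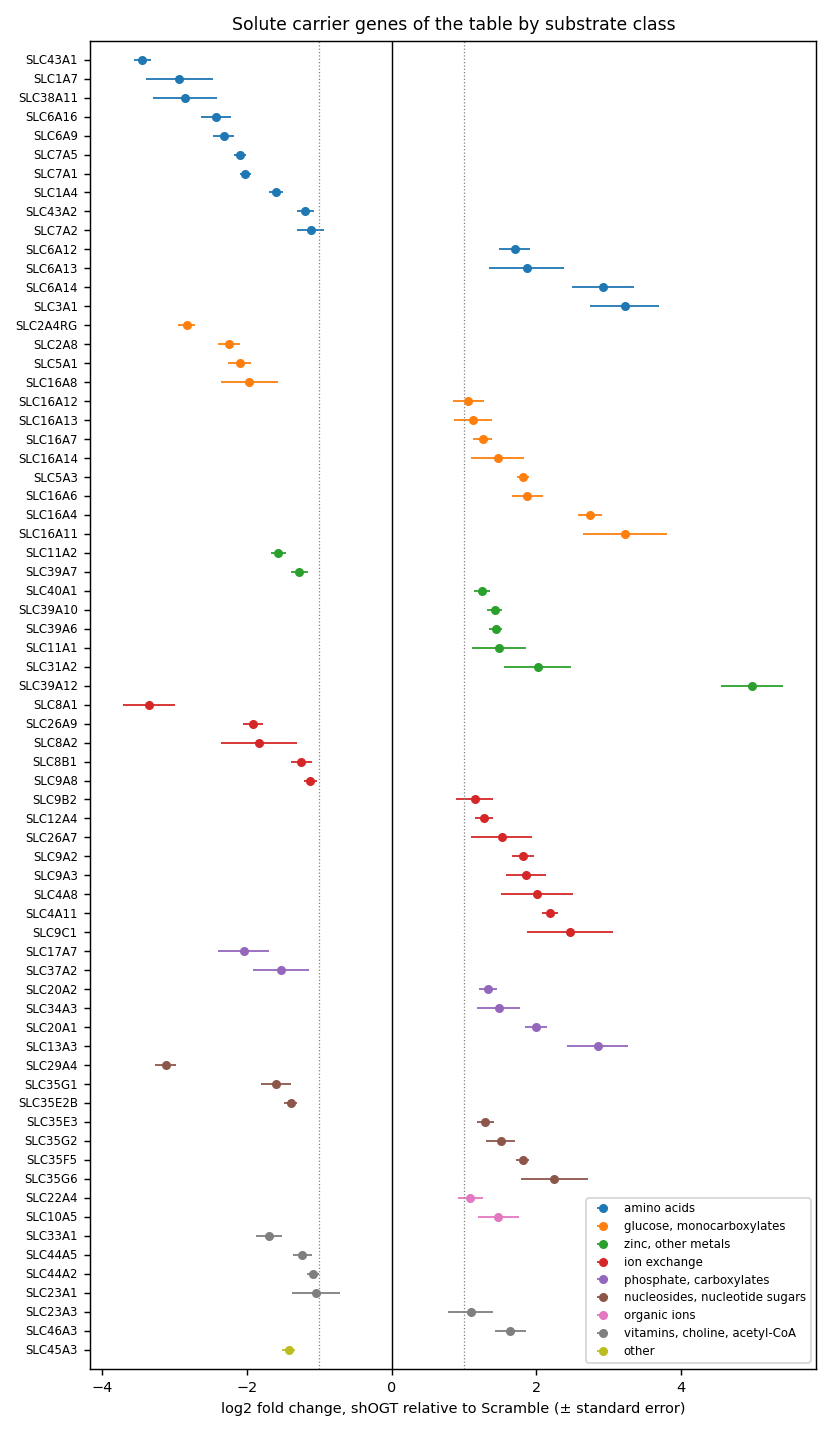
Log2 fold change of each of the 69 genes in shOGT relative to Scramble (x axis, limma on log2(normalized count + 1), bars ± standard error), grouped by substrate class on the y axis and coloured by class, with dotted lines at a 2-fold change. The 14 amino acid carriers hold 10 lower genes, whereas the metal class holds 6 higher and 2 lower genes. Fitted values of the 7 genes with 3 or fewer reads in every library of a group (SLC1A7, SLC38A11, SLC3A1, SLC6A13, SLC6A14, SLC4A8 and SLC39A12) depend on the added count of 1.

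Amino acid carriers were mostly lower after OGT depletion. Of the 14 in the table (60 such genes in GENCODE), 10 (71.4%) were lower and 4 higher, where 47.2% of all genes tested and 57.1% of protein-coding genes were lower. Their median on the log2 scale was −1.81, or −1.73 with genes at 3 or fewer reads per library in a group set to 3 reads there. After rescaling, 7 of the 14 were still called lower and 4 higher. Summed per kilobase of exon, the class fell from 6337 ± 210.2 (SD, n = 3) to 1513 ± 71.1 (SD, n = 3), or 23.9% of Scramble. SLC7A5 and SLC7A1 made up 88.8% of that sum in Scramble and 88.0% in shOGT, so the sum largely follows this pair. SLC3A2, the heavy chain that pairs with SLC7A5, the glutamine carrier SLC1A5 and the cystine carrier SLC7A11 are not listed in the table.

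SLC7A5 (LAT1; ENSG00000103257; chromosome 16, 87830023 to 87869488 of GRCh38), the light chain of the exchanger that imports leucine and other large neutral amino acids, had the highest level per length of all the carriers in Scramble. It measured 19345, 18624 and 17456 in Scramble and 4214, 4148 and 4519.9 in shOGT. Against a narrow spread the groups lay far apart, and the log2 fold change was −2.10 ± 0.08 (SE, adjusted p = 4.96e-11). SLC7A1 (CAT1; ENSG00000139514; chromosome 13, 29509410 to 29595688), which imports arginine and lysine, measured 13032, 13827 and 13088 in Scramble and 3128, 3186 and 3526 in shOGT. Its log2 fold change of −2.02 ± 0.08 (SE, adjusted p = 6.78e-11) was close to that of SLC7A5. SLC7A2 (CAT2), a second cationic amino acid carrier at a far lower level per length, measured 134, 137 and 156 against 61.0, 71.8 and 61.5. At −1.12 ± 0.19 (SE, adjusted p = 5.79e-05) it was the smallest fall of the class, and it came to −0.41 after rescaling.

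Both SLC43 facilitators of large neutral amino acids in the table fell, but to different degrees. SLC43A1 (LAT3; ENSG00000149150; chromosome 11, 57484534 to 57515786) measured 1059.9, 1127 and 1082 in Scramble and 87.4, 99.6 and 112 in shOGT. Its 9.13% of the Scramble level (log2 fold change −3.45 ± 0.12, adjusted p = 2.28e-11) was the lowest log2 fold change among the carriers with a mean of at least 20. As a share of the Scramble level, the sodium-calcium exchanger SLC8A1 kept less, 8.60%. SLC43A2 (LAT4) measured 541, 528 and 527 against 208, 245 and 245, a log2 fold change of −1.19 ± 0.12 (SE, adjusted p = 2.22e-07) that came to −0.48 after rescaling. Both paralogs had tight replicates, and SLC43A1 kept a far smaller share of its Scramble level than SLC43A2, at 9.13% and 43.7%.

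The other amino acid carriers that fell were SLC6A9, SLC1A4, SLC6A16, SLC1A7 and SLC38A11. SLC6A9 (GlyT1), the sodium-coupled importer of glycine, measured 506, 569 and 499.7 in Scramble and 105, 91.0 and 116 in shOGT (log2 fold change −2.33 ± 0.14, adjusted p = 1.79e-09). SLC1A4 (ASCT1), an exchanger of alanine, serine and cysteine, measured 1136, 1098 and 1163 against 373, 385 and 359 (log2 fold change −1.60 ± 0.09, adjusted p = 1.46e-09). SLC6A16, an orphan member of the SLC6 family, measured 176, 213 and 207 against 35.8, 30.0 and 43.3 (log2 fold change −2.43 ± 0.21, adjusted p = 6.78e-08). These genes kept 19.8%, 32.8% and 18.3% of the Scramble level, and SLC1A4 came to −0.89 after rescaling. SLC1A7, a glutamate carrier known from retina, and SLC38A11, a little-studied member of its family, were rare: 39 and 49 reads were summed over the Scramble libraries and 2 and 3 over the shOGT libraries. By those reads SLC1A7 was 16.2-fold lower (95% counting interval 4.20 to 139) and SLC38A11 13.6-fold lower (95% counting interval 4.38 to 68.1), intervals that cover counting error only.

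The 4 amino acid carriers that rose started from low levels. SLC6A12 (BGT1; chromosome 12, 190077 to 214570), which takes up betaine and GABA and serves in osmotic balance, measured 40.8, 62.2 and 46.9 in Scramble and 161, 174 and 153 in shOGT. Every shOGT library was more than 2-fold over every Scramble library, with a log2 fold change of 1.70 ± 0.21 (SE, adjusted p = 2.84e-06). SLC6A13 (GAT2), a GABA carrier 6050 bases away on the same strand, had 7 reads in Scramble and 31 in shOGT and was 5.33-fold higher (95% counting interval 2.30 to 14.3). SLC6A14, a sodium- and chloride-coupled importer of most neutral and cationic amino acids, had 6 reads against 54 and was 10.8-fold higher (95% counting interval 4.66 to 30.8). SLC3A1, the heavy chain of the cystine and dibasic amino acid exchanger, had 1 read against 30. That makes it 36.1-fold higher (95% counting interval 6.0 to 1473), but its reads are uncertain. Of its exon bases, 26.9% also belong to AC013717.1 on the same strand and 29.4% lie opposite PREPL. Of its 75-base stretches, 57.9% also occur in AC013717.1. The lower genes of the class include those with the highest levels per length in Scramble, and the higher genes include those with the lowest. The Scramble level is itself part of the fold change, so this order is a description only.

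**Figure D2:**
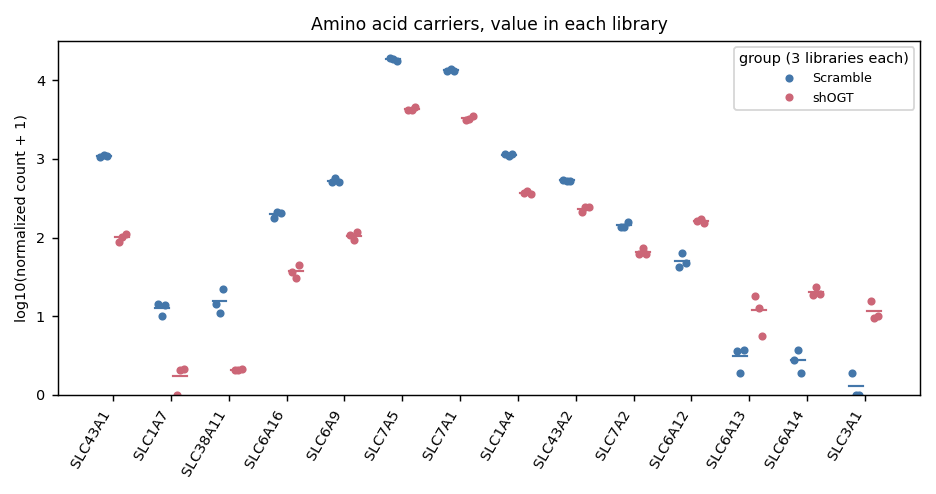
Values of the 14 amino acid carriers in each library, as log10(normalized count + 1) on the y axis, with Scramble in blue and shOGT in red. Points are the 3 libraries of each group, and the line is at log10(group mean + 1). The groups do not overlap for any gene, and 10 of the 14 genes lie lower in shOGT.

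Promoter sequence was read for the carriers because the study centres on c-Myc, the protein of MYC, which recognises the letters CACGTG. RefSeq promoters (GRCh38.p14, 250 bases before to 50 after the start) matched 56 of the 69 genes. CACGTG, which reads the same on both strands, was in 8 of the 56 (14.3%), against 7.43% of all 27305 promoters and 9.66% of the 3364 genes of the table with a promoter. Median promoter GC content was 66.3% for higher and 67.0% for lower carriers, against 58.3% over all promoters. The part of base composition in the motif share was not tested. Of the 27 higher carriers 4 held it, and of the 29 lower carriers 4. All 4 lower ones were amino acid carriers, of 11 in that class with a promoter. The letters TGATGNAAT, an amino acid response element bound by ATF4 with a partner and searched on both strands, were in 2 of the 56 (3.57%, against 1.02% of all promoters), SLC23A3 and SLC9C1, both higher. None of the 11 amino acid carriers held them in this window. Shown here are the windows of the 4 lower amino acid carriers with CACGTG and, for contrast, of the higher carriers SLC16A11 and SLC20A1, 5′ to 3′ on the strand of the gene with the motif in capitals. The motif starts 130, 112, 139, 60, 69 and 206 bases before the start, in the order shown.
SLC7A5 (chr16:87869602-87869667, minus strand): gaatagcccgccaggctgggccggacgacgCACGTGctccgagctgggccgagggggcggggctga
SLC43A1 (chr11:57515779-57515844, minus strand): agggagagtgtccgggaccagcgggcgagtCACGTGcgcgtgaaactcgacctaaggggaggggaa
SLC6A16 (chr19:49325295-49325360, minus strand): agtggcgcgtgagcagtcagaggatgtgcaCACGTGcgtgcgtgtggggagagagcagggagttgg
SLC1A7 (chr1:53142663-53142728, minus strand): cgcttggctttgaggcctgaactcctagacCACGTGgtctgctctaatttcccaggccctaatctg
SLC16A11 (chr17:7044126-7044191, minus strand): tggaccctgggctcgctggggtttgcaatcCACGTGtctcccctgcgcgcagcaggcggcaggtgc
SLC20A1 (chr2:112645703-112645768, plus strand): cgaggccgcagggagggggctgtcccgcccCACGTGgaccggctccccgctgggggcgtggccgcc

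A match in these windows is a description of the letters and not evidence of binding. The same letters stand before genes that fell and genes that rose.

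Among glucose and monocarboxylate carriers the sugar carriers SLC5A1 and SLC2A8 fell, while 7 of 8 SLC16 genes and the inositol carrier SLC5A3 rose. Of the 12 name matches in SLC2, SLC5 and SLC16 (41 in GENCODE), 8 (66.7%) were higher and 4 lower, and without SLC2A4RG 8 were higher and 3 lower. Of all genes tested 52.2% were higher, and of protein-coding genes 42.3%. All 12 kept their calls after rescaling, which put only the 4 lower calls at risk. Summed per kilobase of exon without SLC2A4RG, the class went from 713 ± 43.9 (SD, n = 3) to 1662 ± 58.4 (SD, n = 3). SLC5A3 made up 48.6% of that sum in Scramble and 73.4% in shOGT. The main glucose carrier of many tumour lines, SLC2A1, and the lactate carriers SLC16A1 and SLC16A3 are not listed in the table.

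SLC5A1 (SGLT1; chromosome 22, 32043032 to 32113029), the sodium-coupled glucose importer of the intestinal brush border, measured 373, 324 and 409 in Scramble and 96.8, 79.3 and 78.5 in shOGT. It kept 23.1% of the Scramble level, with a log2 fold change of −2.10 ± 0.16 (SE, adjusted p = 1.57e-08). SLC2A8 (GLUT8), a glucose carrier of intracellular membranes, measured 573, 543 and 565 against 140, 93.2 and 124 (log2 fold change −2.24 ± 0.15, adjusted p = 5.9e-09). SLC2A4RG, the transcription factor, measured 2173, 1735 and 1692 against 291, 237 and 254 (log2 fold change −2.83 ± 0.12, adjusted p = 8.34e-11). They kept 21.2% and 13.9% of the Scramble level, with no overlap between groups.

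SLC5A3 (SMIT1; chromosome 21, 34073570 to 34106262), a relative of SLC5A1 that takes up myo-inositol rather than glucose, moved the other way. It measured 4109, 3684 and 4246 in Scramble and 13169, 14824 and 14374 in shOGT. Its lowest shOGT library was more than 3-fold over the highest Scramble library, and the log2 fold change was 1.82 ± 0.09 (SE, adjusted p = 2.55e-10). Myo-inositol, like the betaine carried by SLC6A12, is an organic osmolyte, and both genes rose, 3.52-fold and 3.25-fold on the means. The pair was picked for its substrates, and a shared role was not tested. SLC6A6, the taurine carrier of the SLC6 family, is not listed in the table. A stretch of 2.36% of the exon bases of SLC5A3 is shared with MRPS6 or AP000317.2.

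The SLC16 family is known for its lactate and pyruvate carriers. Summed per kilobase, its 8 genes in the table went from 154 ± 8.31 (SD, n = 3) to 395 ± 8.25 (SD, n = 3). GENCODE holds 14 SLC16 genes, and the sum leaves out SLC16A1, SLC16A3 and the others not listed, so it is no measure of the whole family. SLC16A7 (MCT2), a high-affinity carrier of pyruvate and lactate, measured 582, 672 and 745 in Scramble and 1301, 1842 and 1662 in shOGT (log2 fold change 1.26 ± 0.13, adjusted p = 3.9e-07). SLC16A4, whose substrate is not settled, measured 52.3, 58.6 and 53.4 against 360, 335 and 428. It was 6.84-fold higher on the means, with tight replicates and a log2 fold change of 2.75 ± 0.16 (SE, adjusted p = 1.71e-09). SLC16A6, linked to ketone bodies, measured 34.6, 35.1 and 41.4 against 132, 147 and 137 (log2 fold change 1.88 ± 0.21, adjusted p = 1.02e-06). Of its 75-base stretches, 5.46% also occur in SLC16A6P1 or AC037487.4.

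The other SLC16 genes were rarer or less certain. SLC16A11, linked to pyruvate transport, measured 0, 0.901 and 4.60 against 28.4, 19.3 and 13.7, with a log2 fold change of 3.23 ± 0.58 (SE, adjusted p = 0.000108) that became 3.90 without Scramble replicate 3. SLC16A13, its neighbour on chromosome 17 with 1508 bases between them on opposite strands, measured 81.6, 53.2 and 65.3 against 220, 119 and 114. In shOGT its coefficient of variation was 39.7%. The log2 fold change of SLC16A13, 1.12 ± 0.26 (SE, adjusted p = 0.0009), dropped under 1 without shOGT replicate 4, at 0.81, and without Scramble replicate 2, at 0.97. SLC16A12, which carries creatine, measured 45.2, 61.3 and 58.0 against 125, 111 and 107. On the log2 scale its change of 1.06 ± 0.21 (SE, adjusted p = 0.000274) came to 0.93 without Scramble replicate 1 and to 0.99 without shOGT replicate 4. SLC16A14, an orphan, measured 26.6, 20.7 and 12 against 45.3, 42.8 and 79.7 (log2 fold change 1.47 ± 0.36, adjusted p = 0.00142). SLC16A8 (MCT3), the lactate carrier known from the retinal pigment epithelium, was the lone SLC16 gene in the table that fell. It went from 66.5, 62.2 and 74.5 to 18.9, 28.9 and 7.97 (log2 fold change −1.97 ± 0.39, adjusted p = 0.000255).

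**Figure D3:**
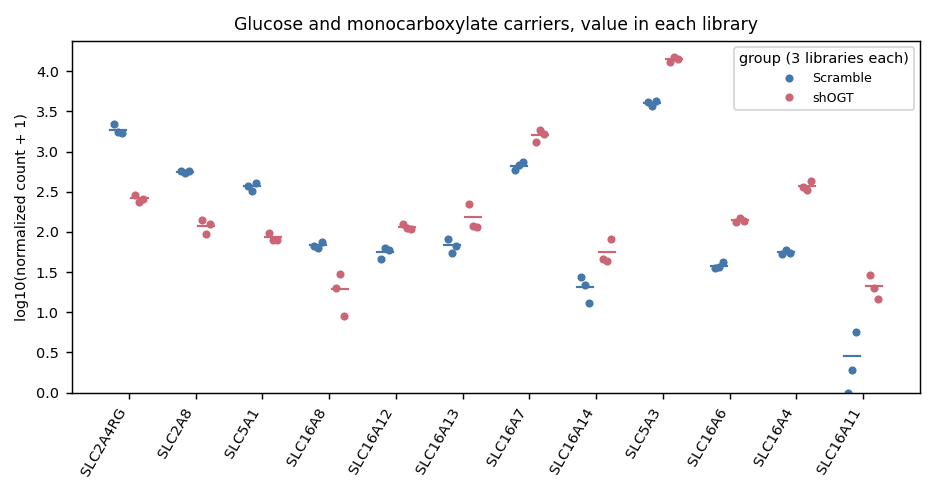
Values of the 12 genes named in SLC2, SLC5 and SLC16 in each library, as log10(normalized count + 1) on the y axis, with Scramble in blue and shOGT in red. Points are the 3 libraries of each group, and the line is at log10(group mean + 1). SLC5A3 has the highest count in both groups, not divided by length, and the 4 genes at the left, SLC2A4RG, SLC2A8, SLC5A1 and SLC16A8, are those lower in shOGT.

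Of 8 metal carriers 6 (75%) were higher and 2 lower, where 52.2% of all genes tested and 42.3% of protein-coding genes were higher, shares that are also the background for the classes that follow. The class holds few genes, and its share was not tested against these. After rescaling, which shifted changes upward, the 6 were called higher and neither of the others lower. Of the 4 SLC39 genes, 3 zinc importers rose and SLC39A7 fell. SLC39A6 (ZIP6; chromosome 18, 36108532 to 36129385) measured 1548, 1791 and 1639.8 in Scramble and 4085, 4719 and 4688 in shOGT (log2 fold change 1.44 ± 0.09, adjusted p = 3.1e-09). SLC39A10 (ZIP10), its closest relative and partner in a complex, measured 659.9, 669 and 690.2 against 1541, 2022 and 1886 (log2 fold change 1.42 ± 0.11, adjusted p = 1.4e-08). This pair rose by nearly the same factor, 2.71-fold and 2.70-fold. SLC39A12 (ZIP12), known from brain, had 1 read over the Scramble libraries and 106 over the shOGT libraries, which is 128-fold higher (95% counting interval 22.4 to 5085). SLC39A7 (ZIP7), which releases zinc from the endoplasmic reticulum and Golgi rather than importing it, fell from 2438, 2063 and 2136 to 1099.9, 838 and 812. The change was −1.28 ± 0.12 (SE, adjusted p = 1.14e-07) on the log2 scale, and −0.56 after rescaling.

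The iron exporter rose and the main iron importer fell. SLC40A1, ferroportin, the iron exporter, measured 436, 339.7 and 409 in Scramble and 939, 962 and 909 in shOGT (log2 fold change 1.25 ± 0.11, adjusted p = 8.29e-08). SLC11A2 (DMT1), the proton-coupled iron importer of the gut and of endosomes, measured 2033, 1628 and 2046 against 629, 654 and 625 (log2 fold change −1.57 ± 0.10, adjusted p = 4.03e-09, and −0.85 after rescaling). Its paralog SLC11A1, the metal pump of phagosomes, stood far lower per length and went the other way, from 11.5, 7.21 and 12 to 38.9, 25.7 and 26.2 (log2 fold change 1.48 ± 0.37, adjusted p = 0.00145). SLC31A2, a relative of the copper importer, measured 0.887, 3.60 and 2.76 against 11.6, 10.7 and 13.7 (log2 fold change 2.02 ± 0.46, adjusted p = 0.000726), but 63.1% of its exon bases lie opposite FKBP15. The labels (a dUTP-marked second strand) and the study's methods (a strand-specific kit) both describe libraries that keep strand. Whether the counting used it is not given in the sources used here, and without it reads of SLC31A2 could not be told from those of FKBP15.

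Both sodium-coupled phosphate importers of the SLC20 family rose. SLC20A1 (PiT1; chromosome 2, 112645857 to 112663827) measured 1167, 1545 and 1364 in Scramble and 4149, 5228 and 7179.9 in shOGT. Its shOGT libraries were spread by a coefficient of variation of 27.8%, yet the lowest of them was more than 2-fold over the highest Scramble library (log2 fold change 1.99 ± 0.16, adjusted p = 2.7e-08). SLC20A2 (PiT2) measured 257, 229 and 226 against 588, 532 and 689.8 (log2 fold change 1.34 ± 0.13, adjusted p = 1.45e-07). SLC34A3, a phosphate importer known from kidney, rose from 21.3, 15.3 and 20.2 to 60.0, 51.4 and 51.2 (log2 fold change 1.48 ± 0.29, adjusted p = 0.000255), so each of the 3 phosphate importers in the table was higher. SLC13A3 (NaDC3), which imports succinate and other dicarboxylates, measured 3.55, 12.6 and 9.20 against 69.5, 72.8 and 44.4 and was 7.36-fold higher on the means (log2 fold change 2.85 ± 0.42, adjusted p = 1.79e-05). SLC17A7, which loads glutamate into vesicles, fell from 47.0, 29.7 and 52.5 to 10.5, 8.57 and 9.11 (−2.05 ± 0.35 on the log2 scale, adjusted p = 7.07e-05). SLC37A2, a sugar phosphate exchanger, fell from 47.9, 62.2 and 39.6 to 18.9, 8.57 and 26.2. For SLC37A2 the log2 change was −1.53 ± 0.39 (SE, adjusted p = 0.00176), and −0.84 after rescaling.

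**Figure D4:**
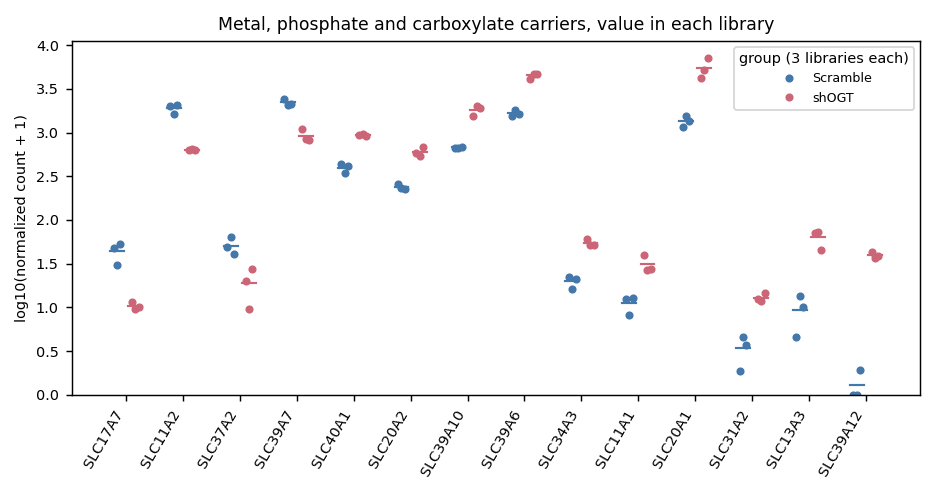
Values of the 8 metal carriers and the 6 phosphate, dicarboxylate and related carriers in each library, as log10(normalized count + 1) on the y axis, with Scramble in blue and shOGT in red. Points are the 3 libraries of each group, and the line is at log10(group mean + 1). The 4 genes at the left, SLC17A7, SLC11A2, SLC37A2 and SLC39A7, are lower in shOGT and the other 10 are higher.

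Ion exchangers and cotransporters were split, 8 higher and 5 lower. The 3 sodium-calcium exchangers of the SLC8 family in the table were lower. SLC8A1 and SLC8A2 clear calcium from the cytosol at the cell surface, and SLC8B1 releases it from mitochondria. SLC8A1 (NCX1; chromosome 2, 40097270 to 40611053) measured 62.1, 58.6 and 67.2 in Scramble and 6.32, 6.43 and 3.41 in shOGT (log2 fold change −3.35 ± 0.36, adjusted p = 5.43e-07), or 8.60% of the Scramble level. SLC8A2 (NCX2) measured 23.1, 15.3 and 12.9 against 1.05, 6.43 and 6.83. The log2 fold change of SLC8A2, −1.84 ± 0.53 (SE, adjusted p = 0.00388), came to −1.21 without shOGT replicate 4, the library with the lowest value. SLC8B1 measured 309.5, 255 and 269.6 against 124, 106 and 118 (log2 fold change −1.25 ± 0.15, adjusted p = 2.01e-06, and −0.54 after rescaling).

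Both SLC4 genes and 4 of 5 SLC9 genes in the table, carriers of bicarbonate and protons, were higher. SLC4A11 (chromosome 20, 3227417 to 3239559), a proton and water carrier of the bicarbonate family, measured 396, 374 and 330.4 in Scramble and 1878, 1611 and 1529.8 in shOGT (log2 fold change 2.19 ± 0.11, adjusted p = 3.38e-10). SLC9A2 (NHE2), a sodium-proton exchanger of the intestinal surface, measured 98.4, 105 and 85.6 against 308, 373 and 337 (log2 fold change 1.81 ± 0.15, adjusted p = 4.6e-08). SLC9A3 (NHE3), the main exchanger for sodium absorption in the gut, measured 58.5, 29.7 and 31.3 against 172, 144 and 112 (log2 fold change 1.86 ± 0.28, adjusted p = 1.99e-05). Its count is uncertain, since 41.9% of its exon bases also belong to PP7080 on the same strand and 29.6% lie opposite EXOC3 or SLC9A3-AS1. SLC9A8 (NHE8), which sits in the Golgi as well as at the surface, was the family member that fell, from 2035, 1982 and 1838 to 962, 831 and 891 (log2 fold change −1.13 ± 0.09, adjusted p = 3.32e-08, and −0.41 after rescaling).

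Of the remaining ion exchangers and cotransporters, SLC26A9 fell and the others rose. SLC9C1, an exchanger known from sperm, measured 0, 0.901 and 5.52 against 10.5, 15.0 and 10.2. The log2 fold change of SLC9C1, 2.46 ± 0.60 (SE, adjusted p = 0.00123), ranged from 1.86 without Scramble replicate 1 to 3.21 without Scramble replicate 3. SLC9B2 measured 71.8, 41.5 and 92.9 against 146, 149 and 142, and its log2 fold change of 1.15 ± 0.26 (SE, adjusted p = 0.000627) came to 0.83 without Scramble replicate 2. SLC4A8, a sodium-driven chloride-bicarbonate exchanger, had 3 reads against 21 and was 8.42-fold higher (95% counting interval 2.51 to 44.1). SLC12A4 (KCC1), the potassium-chloride cotransporter of cell volume, rose from 197, 175 and 216 to 434, 479 and 512 (log2 fold change 1.27 ± 0.13, adjusted p = 3.22e-07). The anion carriers of SLC26 parted, SLC26A7 rising from 4.43, 3.60 and 5.52 to 16.8, 9.64 and 19.3 and SLC26A9 falling from 436, 461 and 458 to 138, 117 and 104. Their log2 fold changes were 1.52 ± 0.42 (SE, adjusted p = 0.00303) and −1.92 ± 0.14 (SE, adjusted p = 1.28e-08).

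Nucleoside and nucleotide sugar carriers, 4 higher and 3 lower, included one of the largest falls. SLC29A4 (PMAT; chromosome 7, 5274369 to 5306870), which takes up monoamines such as serotonin and, at acid pH, adenosine, measured 1188, 792 and 935 in Scramble and 116, 110.3 and 101 in shOGT. It kept 11.2% of the Scramble level, with a log2 fold change of −3.12 ± 0.15 (SE, adjusted p = 2.1e-10). The SLC35 family, named for carriers that bring nucleotide sugars into the Golgi and endoplasmic reticulum, had 4 higher and 2 lower members, none of them with a settled nucleotide sugar. SLC35F5 measured 751, 846 and 844 against 2606, 2954 and 3008 (log2 fold change 1.81 ± 0.09, adjusted p = 4.35e-10). SLC35E3 rose from 222, 229.8 and 231 to 502, 608 and 568 and SLC35G2 from 49.7, 46.9 and 53.4 to 140, 136 and 155. Their log2 fold changes were 1.29 and 1.5 (adjusted p = 1.03e-07 and 4.57e-06). SLC35G6 rose from 2.66, 0.901 and 3.68 to 13.7, 18.2 and 11.4 (log2 fold change 2.25 ± 0.46, adjusted p = 0.000328), although 14.0% of its 75-base stretches occur in other genes such as SLC35G5. SLC35E2B fell from 2156, 1926 and 2012 to 788, 730.5 and 792, and 43.5% of its stretches also occur in SLC35E2A or AL031282.2. SLC35G1, which fell from 216, 203 and 236 to 87.4, 52.5 and 78.5, and SLC35E2B had log2 fold changes of −1.60 ± 0.20 (SE, adjusted p = 3.65e-06) and −1.40 ± 0.09 (SE, adjusted p = 3.06e-09), which came to −0.89 and −0.68 after rescaling.

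Carriers of choline, acetyl-CoA and vitamins were 4 lower and 2 higher, and all 4 lower ones came under 2-fold after rescaling. SLC44A2, a choline carrier of surface and mitochondria, measured 2977, 2738 and 2777 in Scramble and 1261, 1352 and 1376 in shOGT (log2 fold change −1.09 ± 0.08, adjusted p = 1.96e-08). Its paralog SLC44A5 fell from 722, 815 and 772 to 258, 356 and 378 (log2 fold change −1.23 ± 0.14, adjusted p = 8.76e-07). SLC33A1, which brings acetyl-CoA into the endoplasmic reticulum, fell from 383, 366 and 397 to 104, 96.4 and 158 (log2 fold change −1.70 ± 0.18, adjusted p = 4.31e-07). In that gene 21.1% of the exon bases also belong to AC104472.3. After rescaling SLC33A1 came to −0.99, SLC44A5 to −0.52, SLC44A2 to −0.37 and SLC23A1 to −0.35.

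The vitamin C family moved both ways near the 2-fold limit. SLC23A1 (SVCT1), the vitamin C importer of gut and kidney, fell from 60.3, 39.6 and 39.6 to 15.8, 21.4 and 29.6. Its log2 fold change of −1.04 ± 0.33 (SE, adjusted p = 0.00717) came to −0.85 without Scramble replicate 1 and to −0.83 without shOGT replicate 4. SLC23A3, a relative not known to carry vitamin C, rose from 21.3, 16.2 and 18.4 to 37.9, 35.3 and 50.1. Its log2 fold change of 1.09 ± 0.31 (SE, adjusted p = 0.00373) came to 0.95 without shOGT replicate 6, and 47.9% of its exon bases also belong to AC068946.1. SLC46A3, a carrier of lysosomes, rose from 38.1, 47.8 and 41.4 to 114, 154 and 137 (log2 fold change 1.64 ± 0.22, adjusted p = 5.78e-06).

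The remaining 3 carriers were SLC10A5, SLC22A4 and SLC45A3. SLC10A5, an orphan of the bile acid family, rose from 23.9, 22.5 and 26.7 to 56.8, 62.1 and 94.5 (log2 fold change 1.47 ± 0.29, adjusted p = 0.000205). SLC22A4 (OCTN1), the ergothioneine importer, was the sole SLC22 gene in the table and rose from 78.0, 91.9 and 104 to 175, 208 and 199. The log2 change of SLC22A4, 1.08 ± 0.17 (SE, adjusted p = 3.85e-05), came to 0.98 without Scramble replicate 1. SLC45A3, a sucrose-family carrier known as prostein, fell from 1945, 1727 and 1761 to 727, 665 and 629 (log2 fold change −1.43 ± 0.09, adjusted p = 4.51e-09, and −0.71 after rescaling). Neither the SLCO family of organic anion carriers nor the zinc exporters of SLC30 had a gene in the table.

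Family membership did not fix the direction. The 69 genes fell into 32 families, 17 of them with 2 or more members, and 9 of these 17 held genes moving both ways, namely SLC5, SLC6, SLC9, SLC11, SLC16, SLC23, SLC26, SLC35 and SLC39. Families with 3 members moving one way were SLC7 and SLC8, all lower. In SLC6 the osmolyte and GABA carriers SLC6A12 and SLC6A13 and the broad carrier SLC6A14 rose while SLC6A9 and SLC6A16 fell.

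Levels of different genes were compared as normalized counts per kilobase of merged exon length. In Scramble SLC7A5 stood first at 3894, followed by SLC7A1 at 1731, SLC2A4RG at 832, SLC39A7 at 778, SLC44A2 at 543 and SLC45A3 at 489. In shOGT the order had changed, with SLC39A6 at 1221, SLC5A3 at 1220, SLC20A1 at 989.6, SLC7A5 at 905 and SLC7A1 at 426. Each of the 6 leading genes in Scramble was one that fell, and the Scramble level is itself part of that change. The leading 2 in shOGT, a zinc importer and an inositol importer, differed by less than the spread of either, and the libraries of SLC20A1 overlapped both of them and SLC7A5. SLC43A1 went from rank 9 to rank 32 of 69. Summed per kilobase without SLC2A4RG, all the carriers together came to 11355 ± 280 (SD, n = 3) in Scramble. The shOGT sum was 8357 ± 442 (SD, n = 3). The sums cover genes of the table alone and depend on the scaling.

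**Figure D5:**
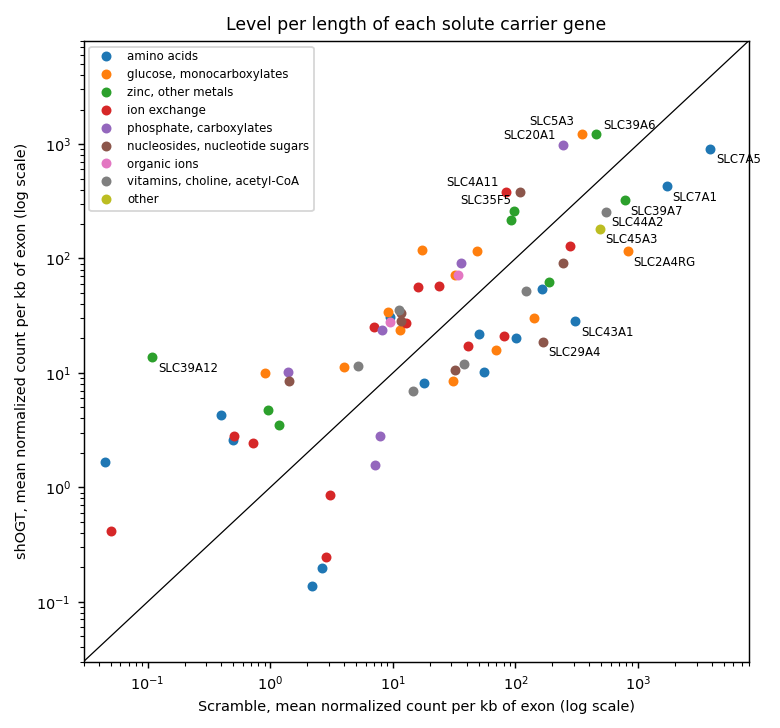
Mean normalized count per kilobase of exon of the 69 genes in Scramble (x axis) and shOGT (y axis), both on log scales, coloured by substrate class, with the line of equal levels. SLC7A5 and SLC7A1 lie below the line at the right, and SLC39A6, SLC5A3 and SLC20A1 lie above it at the top.

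The carriers that rose and fell also differed in properties that the name rule did not use. The median Scramble level was 46.2 normalized counts for the 38 higher genes and 525 for the 31 lower genes. Over all higher and lower genes tested it was 14.1 and 383. In shOGT the medians were 140 and 116 for the carriers, and 55.1 and 123 over all genes tested. The levels of both groups make up the fold change, so these medians cannot be read apart from the calls. Median transcript GC content was 45.3% for higher and 54.8% for lower carriers, and 46.4% and 54.0% over all genes. Of the 37 carriers over 50% GC, 15 were higher and 22 lower, and of the 32 others 23 were higher and 9 lower. Over all genes tested, 37.1% of those over 50% GC and 67.0% of the others were higher, so the carriers followed the same division as the table. The part of GC content in these results was not tested.

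Several carriers lay close together on the genome. SLC6A12 and SLC6A13 on chromosome 12 and SLC16A13 and SLC16A11 on chromosome 17 were neighbours in which both genes rose. SLC45A3 and SLC26A9 on chromosome 1, 232588 bases apart, both fell, as did SLC6A16 and SLC17A7 on chromosome 19, 104175 bases apart. SLC11A2 and SLC4A8 on chromosome 12 and SLC46A3 and SLC7A1 on chromosome 13 were within 1000000 bases of each other and moved in opposite directions. Of the 8 pairs within that distance, 6 moved together, with SLC16A11 counted both with SLC16A13 and with SLC35G6. The same share over all genes of the table was not computed, so the count is a description only.

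Of 26 symbols for partners, regulators and pumps that carriers depend on, 13 were in the table, 6 higher and 7 lower. CLTRN is among the 26 also under its former symbol TMEM27. Of all genes tested 52.2% were higher and 47.2% lower, and of protein-coding genes 42.3% and 57.1%. After rescaling 6 were higher, 5 lower and 2, BSG and WNK1, neither. BSG (basigin), the chaperone of lactate carriers, measured 7088, 6082 and 5888 in Scramble and 2582, 2015 and 2297 in shOGT (log2 fold change −1.47 ± 0.10, adjusted p = 8.84e-09, and −0.75 after rescaling). NPTN (neuroplastin), a relative of BSG, rose from 1582, 1832 and 1817 to 3796, 4141 and 4319.5 (log2 fold change 1.23 ± 0.09, adjusted p = 1.28e-08). Arrestin-domain proteins, which draw carriers off the cell surface, moved both ways. TXNIP fell from 7753, 7956 and 7789.6 to 422, 508 and 576 and ARRDC4 from 1223, 1210.2 and 1181 to 145, 178 and 203, while ARRDC3 rose from 1126, 1396 and 1496 to 4117, 5379 and 4916. Their log2 fold changes were −3.97, −2.79 and 1.84 (adjusted p = 2.25e-12, 1.44e-10 and 3.45e-09).

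CA9 and CA12, carbonic anhydrases of the cell surface that work beside bicarbonate and lactate carriers, fell. CA9 measured 675, 404 and 599 in Scramble and 28.4, 36.4 and 21.6 in shOGT (−4.23 on the log2 scale, adjusted p = 7.32e-10). CA12 measured 2691, 2698 and 2635 against 393, 404 and 422 (−2.72 on the log2 scale, adjusted p = 1.15e-11). The cytosolic CA2 rose from 17.7, 17.1 and 24.8 to 37.9, 46.1 and 47.8 (log2 fold change 1.12 ± 0.31, adjusted p = 0.00297). STOM, a membrane protein that binds the glucose carrier SLC2A1, went from 0, 5.41 and 3.68 to 219, 265 and 279, and its log2 fold change of 6.35 ± 0.54 (SE, adjusted p = 5.18e-08) came to 5.53 without Scramble replicate 1. CLTRN, a partner of intestinal and renal amino acid carriers, rose from 0.887, 2.70 and 3.68 to 16.8, 32.1 and 33.0 (log2 fold change 3.09 ± 0.47, adjusted p = 2.14e-05), and PDZK1IP1, a partner of sodium-glucose carriers, fell from 114, 84.7 and 77.3 to 22.1, 24.6 and 18.2 (log2 fold change −2.03 ± 0.27, adjusted p = 6.69e-06). ATP1B3, a subunit of the sodium pump, and WNK1, a kinase over chloride cotransporters, lay at the limit with log2 fold changes of 1.01 ± 0.08 (SE, adjusted p = 2.39e-08) and −1.01 ± 0.09 (SE, adjusted p = 7.81e-08). ATP1B3 came to 0.99 without Scramble replicate 1 and without shOGT replicate 6, and WNK1 to −0.98 without Scramble replicate 3 and −0.94 without shOGT replicate 4. WNK1 came to −0.29 after rescaling.

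Of 18 transcription factors known to act on carrier genes, 8 were listed and each of the 8 was lower, against 57.1% of protein-coding genes tested. These factors were chosen with earlier results of these data known, so the share is a description only. HNF4A, a factor of the intestinal and liver epithelium, fell from 825, 755 and 753 to 187, 232 and 205 (−1.90 on the log2 scale, adjusted p = 2.31e-09). It was still called lower after rescaling, at −1.18, and the other 7 were not. Among the 7 was ATF4, the factor of the amino acid response, at 4664, 4452 and 4158 against 2186, 2028 and 1960 (log2 fold change −1.10 ± 0.08, adjusted p = 1.92e-08). MYC was another, at 4476, 5101 and 4809 against 2251, 1969.7 and 2665 (log2 fold change −1.07 ± 0.11, adjusted p = 2.64e-07). The study's own quantitative PCR in HT-29 cells found no significant decrease of MYC mRNA after OGT depletion, while the protein was lower. After rescaling ATF4 came to −0.39 and MYC to −0.35, and MYC was at −0.97 without shOGT replicate 5. SREBF2, SREBF1, EPAS1, PPARA and TFEB had log2 fold changes of −1.68, −1.07, −1.34, −1.12 and −1.05 (adjusted p from 7.47e-10 to 9.69e-05), and TFEB was at −0.86 without shOGT replicate 6.

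Carriers with symbols outside the SLC scheme were mostly higher. Of 43 such symbols, which include HCP1, an alias of SLC46A1, 9 were in the table. Of these 8 were higher and 1 lower, against 42.3% of protein-coding genes higher. They were chosen with earlier results of these data known, so the share is a description only. SPNS2, the sphingosine-1-phosphate exporter, measured 2288, 1689.6 and 1811 in Scramble and 8374, 7174 and 7552 in shOGT (log2 fold change 2.01 ± 0.11, adjusted p = 7.54e-10). NPC1, which moves cholesterol out of lysosomes, rose from 1135, 1093 and 1075 to 2912, 3065 and 3539 (1.52 on the log2 scale, adjusted p = 1.85e-09). PQLC2, the lysosomal exporter of cationic amino acids, rose from 207, 203 and 188 to 739.9, 587 and 594 (1.67 on the log2 scale, adjusted p = 1.46e-08), while the surface carrier SLC7A1 fell. FLVCR2, a choline and heme carrier, rose from 22.2, 30.6 and 22.1 to 193, 111 and 125 (log2 fold change 2.45 ± 0.27, adjusted p = 8.04e-07). MFSD11, SPNS1, SPNS3 and TTYH1 rose with log2 fold changes of 1.25, 2.44, 1.29 and 2.32 (adjusted p = 1.17e-07, 5.31e-05, 0.000238 and 1.04e-06). MFSD2A, the importer of lysophosphatidylcholine, was the one that fell, from 334, 325 and 321 to 167, 131 and 135 (log2 fold change −1.18 ± 0.14, adjusted p = 2.05e-06, and −0.47 after rescaling).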

How the data were processed

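RNA-seq of HT-29 cells in 6 libraries (3 Scramble, 3 shOGT) was analysed, with each column matched to its label by its number. Signal values deposited by the authors are normalized counts, and 100% of them were whole multiples of 1 step per library within a tolerance of 0.02, so whole reads were recovered. The labels and the study's methods describe different library preparations, both of which keep strand. The submitters' processing notes name cutadapt 1.9, HISAT2 2.0.4, UMI-tools, StringTie 1.3.4d, DESeq2, edgeR and a mouse build, mm8, with no role or order, whereas gene positions and exon lengths matched GENCODE version 29 (GRCh38) for all 5681 genes. The deposited group means, log2 fold changes and p-values are the authors' own, and nothing was taken from them but the limits of the table. Gene lengths per kilobase are merged exon lengths.

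limma 3.58.1 (trend, R 4.3.3) took log2(normalized count + 1), which understates changes of low genes, for the 5671 genes that reached 1 in 3 or more libraries, with Benjamini-Hochberg adjustment. The plan foresaw raw counts as well, and the branch for normalized values was followed. Alternatives were rescaling by the median of ratios, a pseudocount of 0.1, no filter, a mean of at least 5, each replicate left out, edgeR 4.0.16 with TMM and DESeq2 1.42.0 on the recovered reads, and, chosen after seeing the data, both with the deposited size factors. Where every library of a group held 3 or fewer reads, the ratio of summed reads over summed size factors was given with an exact binomial 95% interval in place of a fitted value.

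Members, classes and lists were chosen with earlier results of these data known. Named by rule were members of the amino acid and the glucose or monocarboxylate classes with a mean of at least 20, over all members the 6 highest and 6 lowest log2 fold changes and the 6 highest levels per length, the 2 largest changes of each other class, genes at 3 or fewer reads in a group, name matches that are not carriers, families moving both ways, and genes of the lists, 59 members in all. The other 10 members were named after their values were seen. Exon overlaps and shared stretches of 75 bases were taken from GENCODE, and promoters from RefSeq. Some genes of the lists are not reported here. Protein sequences were not used here.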

Additional observations from a re-analysis of the deposited data

How the results depend on the processing

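The 69 genes kept their direction under every alternative in which they were tested. The count of lower carriers moved from 31 to 16 with libraries rescaled on the median of ratios. With DESeq2 and its own size factors it came to 15, where SLC8A2 also lost its call. Both took their scaling from the listed genes alone, all of which had passed 2-fold. Which scaling is nearer to the RNA content of the cells was not tested. The 38 higher calls did not change in number with either, but both shifted log2 fold changes upward and so put lower calls alone at risk. With edgeR and TMM, a pseudocount of 0.1, no filter on low values, and edgeR or DESeq2 on the deposited size factors, all 69 calls remained. With a mean of at least 5, 68 genes were tested and all were called, since SLC4A8 was under that limit. Leaving out 1 library at a time took at most 3 calls away. No paired analysis was possible because the groups share no replicate numbers (1 to 3 in Scramble, 4 to 6 in shOGT). Depth limits the 13 carriers with a mean under 20.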
